A study of Gallus gallus with 6 samples.

Results

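The cell cycle genes described here are a fixed list of 31 genes of DNA replication, mitosis and the G1 phase, measured in cultured chicken neural crest cells on 6 expression arrays. A member was any probe set whose platform annotation gave exactly 1 gene symbol equal to a listed gene, whatever its value. This gave 46 of the 38535 probe sets on the array, for 26 of the 31 genes. Of these, 37 probe sets and all 26 genes reached a log2 value of 4 or more on 3 or more arrays and were tested among 16526 probe sets. No probe set carried CCNB2, MCM4, MCM7, AURKA or UBE2C as its only symbol, so these 5 genes were not analysed here.

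Cells had emigrated from neural tubes of Brown Leghorn embryos (stages 10 to 13) that were explanted with retrovirus, and the explants were removed after 3 days. In 3 cultures (v-Myb arrays) the introduced protein was v-Myb-L3,4A-HAER. This is a 4-OH-tamoxifen-inducible version, mutated in its leucine zipper, of v-Myb, the transforming transcription factor of an avian retrovirus. In 3 further cultures (N118D arrays) it was v-Myb-L3,4A-N118D-HAER, which has an additional point mutation in the DNA-binding domain. All 6 cultures were infected and were treated with the inducer at 200 nM during 4 hours, so neither uninfected nor uninduced cells enter the comparison. Each array measured a whole culture, in which fewer cells of a type and less RNA per cell cannot be told apart. The titles call the cultures biological replicates without naming separate embryos, so p-values measure only the spread between these cultures.

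A dividing cell copies its DNA in S phase and separates the copies in mitosis. Cyclin-dependent kinases drive these steps, and passage through G1 is held back by CDK inhibitors and by the retinoblastoma protein, which restrains E2F transcription factors. E2F factors activate many replication genes, and mitotic genes are switched on later by a complex that includes B-Myb, a vertebrate relative of v-Myb. Neural crest cells and young melanoblasts divide while they migrate, whereas many of the neurons they form do not.

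Cell cycle transcripts differed little between v-Myb and N118D cultures. For 22 of the 26 genes the group means lay within 0.1 of each other on the log2 scale, and for 25 the wider of the within-group ranges was larger than the difference between the groups. Neither count is given here for all genes. The median size of the difference was 0.026 for the 26 genes and 0.068 for all 8571 genes with a tested probe set, so small differences were common in both. E2F1 was 1.22-fold higher in v-Myb cultures on average and was the single gene of the list (3.85%) whose arrays did not overlap between the groups. This was the case for 5.74% of all tested probe sets and 5.55% of the 8571 genes. The largest difference in the other direction was that of CCNB3, -0.21, with overlapping groups. These 2 genes (7.69%) were those with a difference of at least 0.2 in size, which 15.9% of all tested probe sets had. That share counts every tested probe set, whereas each listed gene was counted by 1 probe set. Of the 26 genes, 0 passed an adjusted p of 0.05 in limma, as did 0 (0%) of all probe sets tested. In the same fit 1 had an unadjusted p under 0.05, where 1.91% of all tested probe sets and 144 of the 8571 genes did. By the brightest tested probe set of each gene, the 95% intervals of all 26 differences, not adjusted for the number of genes, stayed within 1.5-fold in either direction. The widest of the 26, that of MCM3, reached 1.45-fold, and 25 of the 26 included 0. Among all tested probe sets of the list, 33 of 37 intervals stayed within 1.5-fold. The interval counts are not given here for all genes either. The median SE was 0.11 for the 26 genes and 0.12 for all 8571 genes, so intervals of this width were not particular to the list.

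**Figure D1:**
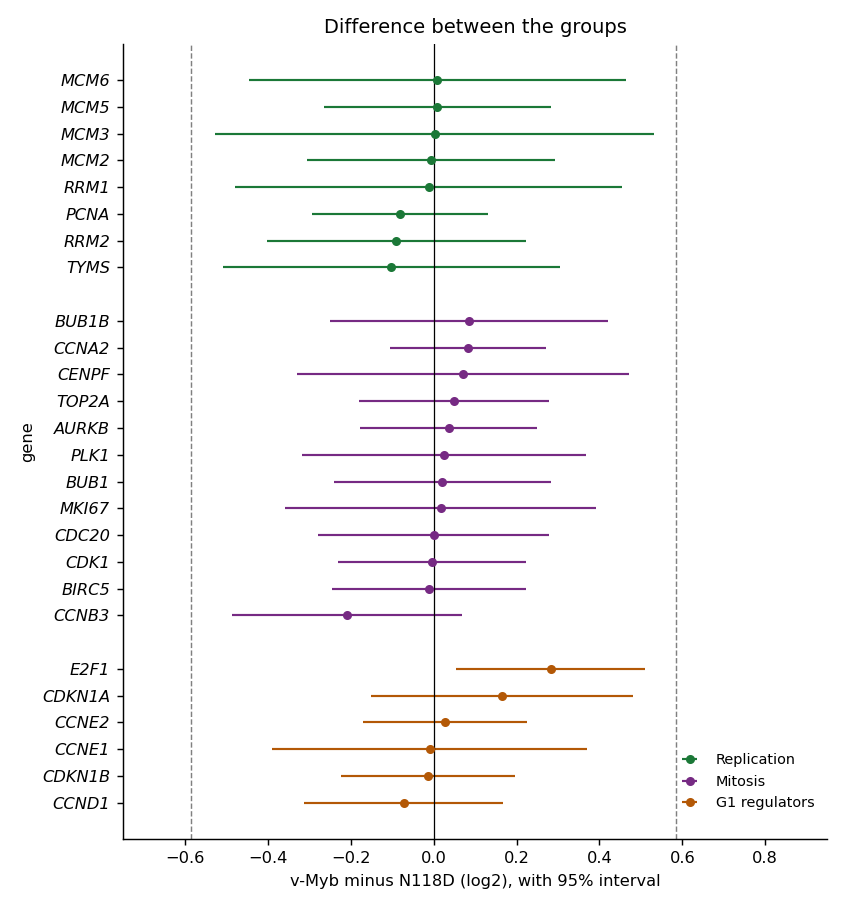
Difference between the groups (v-Myb minus N118D, log2, horizontal axis) for each of the 26 genes with its 95% interval from limma, for 3 against 3 arrays. Dashed lines mark 1.5-fold, and the interval of E2F1 is the single one that does not include 0.

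As a check of the cells, all 9 melanoblast markers and 7 of 8 neural crest markers were tested. SOX10, which is on both lists, lay between 11.03 and 11.92 and TFAP2B between 11.55 and 12.24 on the 6 arrays, whereas TFAP2A ran from 5.63 to 6.46 and RXRG from 4.61 to 5.28. The probe set for SOX9 stayed between 2.08 and 2.46. Markers of other cells were present as well. The level of EPCAM, an epithelial adhesion gene, ran from 9.70 to 12.23, and that of the neuronal gene STMN2 from 11.53 to 13.02. On the same lists UPK3BL ran from 3.80 to 6.13, and GAP43 stayed between 2.25 and 2.29. COL1A1, a mesenchymal gene, ran from 13.86 to 14.41. Among skeletal muscle genes ACTA1 ran from 12.13 to 13.01, while MYOG stayed between 1.79 and 1.86. Of 4 leukocyte genes, SPI1 and CSF1R stayed under 4, while PTPRC ran from 5.24 to 5.87 and CD74 from 7.51 to 8.37. The averaged neuronal list (8 of 9 genes tested) was highest on v-Myb replicate 1, at 1.33 relative to its mean of all arrays, and ranged from -0.89 to 0.24 elsewhere. The 9 melanoblast genes were all highest on v-Myb replicate 2.

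**Figure D2:**
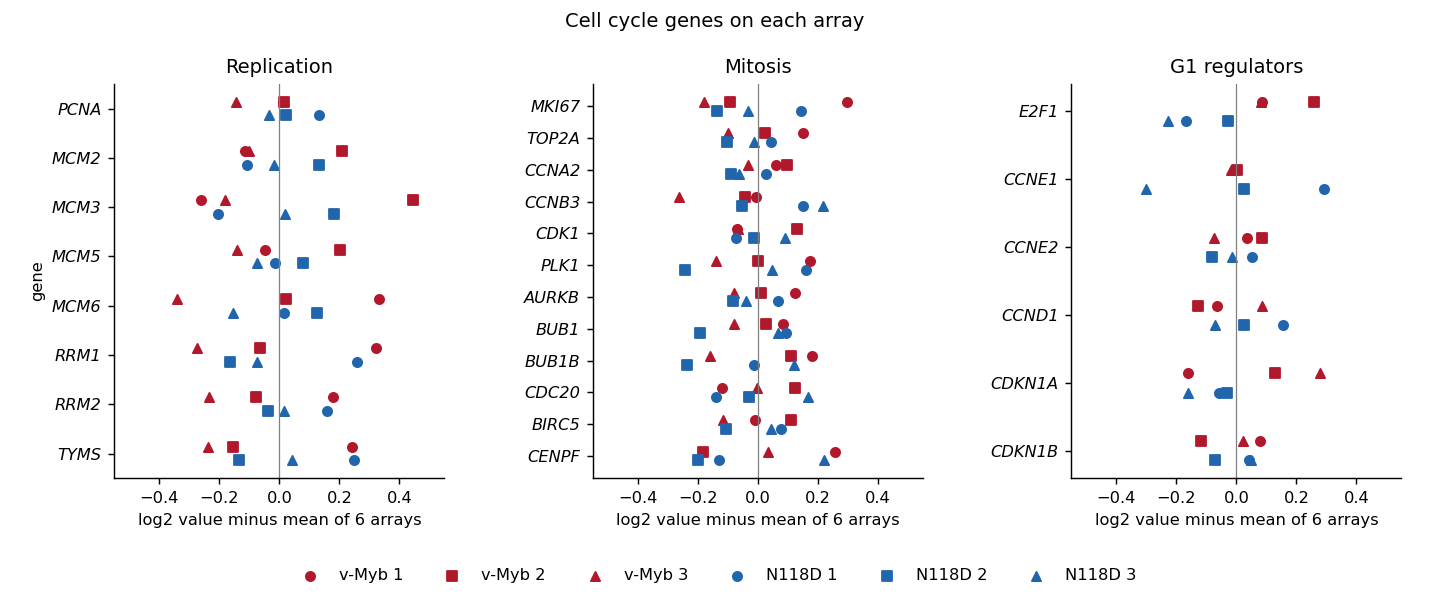
Log2 value of each gene on each array minus that gene's mean over the 6 arrays (horizontal axis), by class, with v-Myb arrays in red and N118D arrays in blue, and circles, squares and triangles for replicates 1, 2 and 3. The groups are apart for E2F1 and overlap for the other 25 genes.

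Replication genes had a median difference of -0.0089 on the log2 scale, against -0.0018 for all tested probe sets. The means of 3 of the 8 measured genes were higher in v-Myb cultures and those of 5 were lower. Of all tested probe sets 49.2% were higher. The direction of the gene count depends on the scaling, with 5 higher after median centring. Of the 8 genes 0 had an unadjusted p under 0.05 in limma, where 1.91% of all tested probe sets did. The differences ran from -0.10 for TYMS to 0.0090 for MCM6. What varied was the level between cultures, by up to 0.71 on the log2 scale by the brightest tested probe set of each gene, and not in 1 pattern. A further probe set, of MCM6, had a range of 1.21. The median SD over the 6 arrays was 0.18 for the 8 genes and 0.14 for all 8571 genes.

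MCM2, MCM3 and MCM5 encode subunits of the ring-shaped helicase that is loaded onto origins in G1 and unwinds DNA in S phase. The log2 level of MCM3 was 8.87, 9.57 and 8.95 in v-Myb replicates 1, 2 and 3 and 8.92, 9.31 and 9.15 in the corresponding N118D replicates. The level of MCM2 was 9.95, 10.27 and 9.97 in v-Myb and 9.96, 10.20 and 10.05 in N118D cultures. That of MCM5 was 10.84, 11.09 and 10.75 in v-Myb and 10.88, 10.97 and 10.82 in N118D cultures. In each of the 3 genes v-Myb replicate 2 was highest and N118D replicate 2 second, and the groups overlapped. They were set apart from MCM6 after their values were seen. Of all genes, 23.4% were highest on v-Myb replicate 2. Deviations of the 2 arrays numbered 2 correlated at 0.45 over all tested probe sets, and those of v-Myb replicate 3 and N118D replicate 2 at 0.42. How many other genes had this order of arrays was not counted. The group means differed by 0.0024 (SE 0.22) for MCM3, -0.0060 (SE 0.12) for MCM2 and 0.0085 (SE 0.11) for MCM5. Without v-Myb replicate 2 the difference of MCM3 was -0.22 and that of MCM5 -0.090.

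MCM6 encodes a subunit of the same ring but followed a different order of arrays. Its level was 11.11, 10.80 and 10.44 in v-Myb replicates 1, 2 and 3 and 10.80, 10.90 and 10.62 in N118D replicates 1, 2 and 3, a difference of 0.0090 (SE 0.18). A further probe set of MCM6 ran from 7.57 to 8.79, and another from 7.58 to 8.39. All 3 were highest on v-Myb replicate 1 and lowest on v-Myb replicate 3, and the further 2 differed by 0.22 (SE 0.33) and 0.11 (SE 0.22) between the groups. The interval of the first of these reached 2.05-fold, the widest among the 37 tested probe sets of the list. One more probe set of MCM6, and a second one of MCM2, stayed under the minimum at 3.11 to 3.23 and 2.84 to 2.89.

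Ribonucleotide reductase and thymidylate synthase make the building blocks of DNA, and their genes shared their 2 highest arrays and their lowest array. RRM1, which encodes the large reductase subunit, was at 9.34, 8.95 and 8.74 in v-Myb replicates 1, 2 and 3 and at 9.27, 8.85 and 8.94 in the N118D replicates. RRM2, which encodes the small subunit, was at 12.80, 12.54 and 12.39 in v-Myb and at 12.78, 12.58 and 12.64 in N118D cultures. TYMS, which encodes thymidylate synthase, was at 11.01, 10.61 and 10.53 in v-Myb and at 11.01, 10.63 and 10.81 in N118D cultures. The first replicate of either group held the 2 highest values in all 3 genes, v-Myb replicate 3 held the lowest, and the groups overlapped. Of all genes, 20.8% were highest on v-Myb replicate 1 and 26.9% on N118D replicate 1, and 21.3% were lowest on v-Myb replicate 3. Deviations of the 2 arrays numbered 1 correlated at 0.40 over all tested probe sets. The differences were -0.012 (SE 0.19) for RRM1, -0.090 (SE 0.13) for RRM2 and -0.10 (SE 0.16) for TYMS, all with an adjusted p of 0.9999 in limma. A second RRM1 probe set had its lowest value on the same array and differed by -0.034 (SE 0.20).

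PCNA, the sliding clamp that holds DNA polymerases on the template, was among the steadier replication genes. It was at 13.49, 13.49 and 13.33 in v-Myb and at 13.61, 13.50 and 13.44 in N118D cultures. The difference was -0.081 (SE 0.086), and its SD over the 6 arrays was 0.091 against a median of 0.16 for all tested probe sets.

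**Figure D3:**
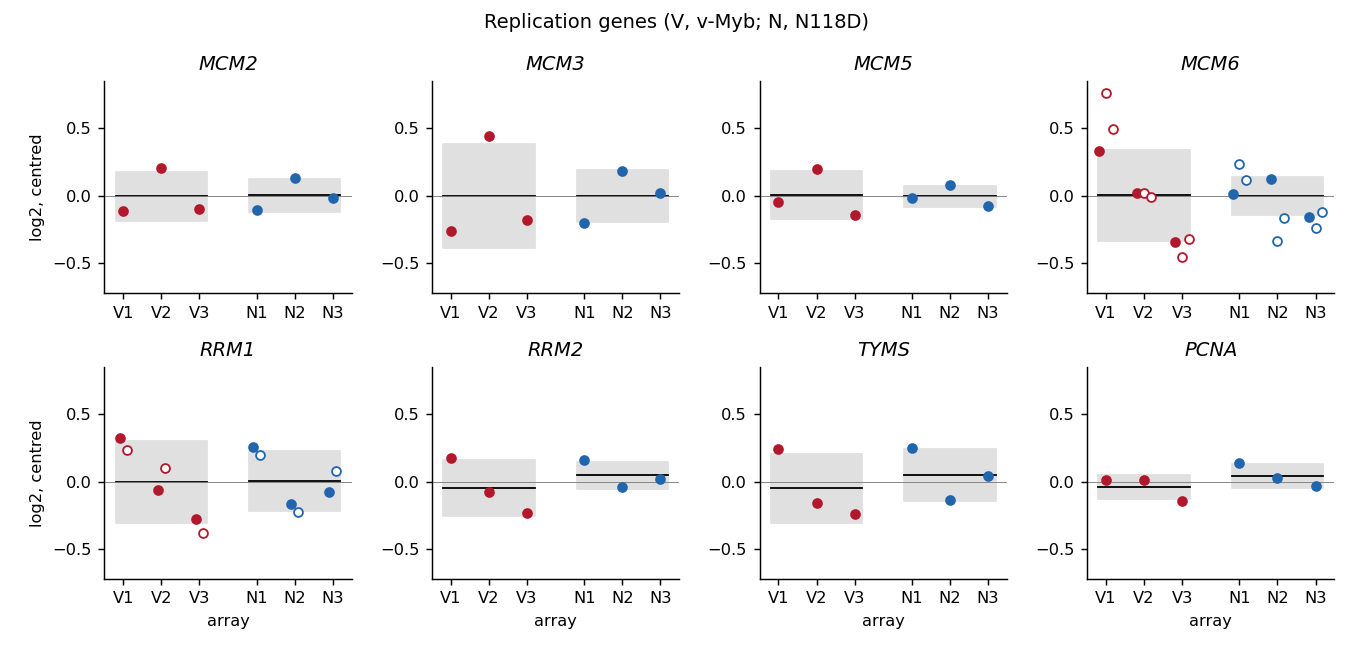
Log2 value minus the mean of the 6 arrays (vertical axis) for the 8 replication genes on the 3 v-Myb (V) and 3 N118D (N) arrays. Filled points are the probe set used for the gene and open points its other tested probe sets, lines and grey bands are the group mean ± SD (n = 3) of the filled points; MCM2, MCM3 and MCM5 peak on V2, and RRM1, RRM2 and TYMS on V1 and N1.

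Replication genes were lowest on v-Myb replicate 3 in 6 of 8 cases, where 21.3% of all genes had their lowest value on that array. A list of other replication genes, with 34 of 42 measured, was lowest there in 19 cases. Of these genes 16 were higher and 18 lower in v-Myb cultures, with a median difference of -0.015, and 0 had an unadjusted p under 0.05. Those with the smallest p were RPA3, a subunit of the single-strand binding protein, at -0.10, GMNN, the inhibitor of origin licensing known as geminin, at 0.13, and POLD3, a subunit of DNA polymerase delta, at -0.078. CDT1, which loads the MCM ring, ran from 7.77 to 8.66 with its highest values on v-Myb replicate 2 and N118D replicate 2 (chosen after its values were seen). Of the 34 genes, 12 were highest on v-Myb replicate 2, 12 on N118D replicate 1 and 7 on v-Myb replicate 1. The shares of all genes were 23.4%, 26.9% and 20.8%. The mean level of the 8 replication members was at -0.21 relative to their mean of all arrays on v-Myb replicate 3 and between -0.035 and 0.082 elsewhere. Neuronal markers were also lowest on v-Myb replicate 3, at -0.89, and melanoblast and neural crest markers highest on v-Myb replicate 2, at 0.64 and 0.54. On v-Myb replicate 2 neuronal and neural tube progenitor markers parted from the replication members, at -0.59 and -0.74 against 0.074. On v-Myb replicate 1 the neuronal list and the replication members were both highest, at 1.33 and 0.082. The part of these cell types in the replication values was not tested.

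Mitosis genes had a median difference of 0.023, with 9 of 12 measured genes higher and 3 lower in v-Myb cultures. Of all tested probe sets 49.2% were higher. The count of higher genes rests on single arrays, since it was 4 of 12 without v-Myb replicate 1, 3 of 12 without N118D replicate 2 and 11 of 12 without v-Myb replicate 3 or N118D replicate 3. It was 8 after quantile normalization, 11 after median centring and 7 with array weights. Of the 12 genes 0 had an unadjusted p under 0.05 in limma, where 1.91% of all tested probe sets did. Groups without overlap were seen for 0 of the 12, against 5.74% of all tested probe sets and 5.55% of all genes.

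The cyclins of this class bind the kinases that start mitosis. CCNB3, a B-type cyclin, had the smallest p and the largest range of the class. It was at 9.46, 9.42 and 9.20 in v-Myb replicates 1, 2 and 3 and at 9.61, 9.41 and 9.68 in the N118D replicates, which gave a difference of -0.21 (SE 0.11, adjusted p 0.9999 in limma). N118D replicate 2 lay below v-Myb replicates 1 and 2, so the groups overlapped, and the sign held on leaving out any array (-0.29 to -0.13). CCNA2, which encodes cyclin A, was at 11.46, 11.50 and 11.37 in v-Myb and at 11.43, 11.31 and 11.34 in N118D cultures. Its difference was 0.083 (SE 0.076), positive on leaving out any array (0.055 to 0.12). CDK1, the mitotic kinase, ran from 12.86 to 13.06 and differed by -0.0041 (SE 0.092). The probe set annotated as CCNB1, a gene that RefSeq also lists under the name CCNB2, ran from 13.28 to 13.41 and differed by -0.033 (SE 0.072).

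Group differences for genes of chromosomes and the spindle were smaller than their SE. MKI67, the proliferation marker that coats mitotic chromosomes, was at 11.79, 11.40 and 11.31 in v-Myb and at 11.64, 11.35 and 11.46 in N118D cultures, so the first replicate of each group was its highest. The difference was 0.017 (SE 0.15), and -0.13 without v-Myb replicate 1. TOP2A, a DNA topoisomerase, ran from 10.30 to 10.56 and differed by 0.049 (SE 0.093), while its other probe set differed by -0.034 (SE 0.093). PLK1, a kinase of mitotic entry and exit, ran from 11.10 to 11.51 and differed by 0.024 (SE 0.14). AURKB and BIRC5 encode the kinase and survivin of the chromosomal passenger complex. They ran from 12.13 to 12.33 and from 10.07 to 10.30, with differences of 0.037 (SE 0.087) and -0.011 (SE 0.095).

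BUB1 and BUB1B serve the spindle checkpoint, and CDC20, which the checkpoint restrains, activates the anaphase-promoting complex. BUB1 ran from 9.57 to 9.86 and differed by 0.021 (SE 0.11). BUB1B was at 9.98, 9.91 and 9.64 in v-Myb and at 9.79, 9.57 and 9.92 in N118D cultures, a difference of 0.086 (SE 0.14). CDC20 ran from 11.06 to 11.36 with a difference of 0.00043 (SE 0.11). Its 2 lowest values were on the first replicate of each group. On 1 of these, v-Myb replicate 1, 6 of the 12 mitosis genes were highest, as were 20.8% of all genes. Of 43 mitosis genes outside the list, 9 were highest on v-Myb replicate 1 and 18 on N118D replicate 1, where 26.9% of all genes were. The 9 of 43 lay near the share of all genes, so genes outside the list did not repeat the count of the members. CENPF, a kinetochore protein gene, was at 7.12, 6.68 and 6.89 in v-Myb and at 6.73, 6.66 and 7.08 in N118D cultures, a difference of 0.071 (SE 0.16).

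The dimmer probe sets of BUB1 and CENPF did not follow the brighter ones. A BUB1 probe set between 4.42 and 5.29 was lowest on v-Myb replicate 1, where the brighter one was at 9.85 and next to its highest. A CENPF probe set between 5.92 and 6.84 was also lowest on v-Myb replicate 1, where the one used for the gene was highest. Their differences between the groups were -0.028 (SE 0.25) and 0.038 (SE 0.30). Another CENPF probe set stayed between 4.59 and 4.65, and further ones of CENPF, BUB1, BUB1B and CCNA2 were not tested. An untested CENPF probe set ran from 3.30 to 4.32, near the minimum of 4. Its means were 4.14 in v-Myb and 3.73 in N118D cultures, with overlapping groups. Levels of genes with several probe sets are therefore given for the probe set with the highest mean, and the others beside it.

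Mitosis genes outside the list gave a like picture, with 43 of 56 measured, 23 higher and 20 lower in v-Myb cultures and a median of 0.010. Of the 43, 0 had an unadjusted p under 0.05 in limma, against 1.91% of all tested probe sets. The groups did not overlap for 2 (4.65%), again against 5.74% of all tested probe sets and 5.55% of all genes. KIF15, a spindle motor, was at 10.77, 11.42 and 10.92 in v-Myb and at 10.47, 10.64 and 10.76 in N118D cultures, a difference of 0.42 (SE 0.19). Its lowest v-Myb array lay just above its highest N118D array. CENPI and NDC80, of the kinetochore, differed by 0.13 (SE 0.072) and 0.18 (SE 0.11), and the groups of CENPI did not overlap. MYBL2, which encodes B-Myb, ran from 9.31 to 9.47 and differed by 0.040 (SE 0.072).

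G1 regulators had a median difference of 0.0092, with 3 of 6 genes higher and 3 lower in v-Myb cultures. E2F1 encodes the transcription factor that retinoblastoma protein restrains. Its level was 9.37, 9.55 and 9.37 in v-Myb replicates 1, 2 and 3 and 9.12, 9.26 and 9.06 in N118D replicates 1, 2 and 3. The lowest v-Myb value exceeded the highest N118D value, as it did for 2.69% of all tested probe sets. The means were 9.43 ± 0.10 and 9.15 ± 0.10 (SD, n = 3 each), a difference of 0.28 (SE 0.093, 95% interval 0.055 to 0.51) with an adjusted p of 0.9999 and an unadjusted p of 0.0232 in limma. With 3 arrays a group the smallest p of an exact two-sided permutation test is 0.1. The difference was 0.22 to 0.34 on leaving out any array, and the unadjusted p was no longer under 0.05 without v-Myb replicate 2, N118D replicate 1 or N118D replicate 3.

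Some lists of cell type markers also differed in mean between the groups, where 49.2% of all tested probe sets had a higher mean in v-Myb cultures. The lists were chosen with earlier results of these data known, so their counts are a description and not a test. SOX10 is counted in both the melanoblast and the neural crest list. Mean levels of the melanoblast genes were higher in v-Myb cultures in 9 of 9 cases (median difference 0.38) and those of neural crest genes in 7 of 7 (median 0.24). Epithelial genes were higher in v-Myb cultures in 0 of 5 cases (median -1.10) and mesenchymal genes in 0 of 7 (median -0.13). Neuronal genes were higher in 3 of 8 cases (median -0.13) and neural tube progenitor genes in 1 of 6 (median -0.32). All 7 neural crest genes were highest on v-Myb replicate 2, where the list was at 0.54. It was at -0.11 and -0.065 on v-Myb replicates 1 and 3 and between -0.14 and -0.10 on N118D arrays. Relative to its mean of all arrays, the melanoblast list ranged from -0.18 to 0.64 on v-Myb and from -0.41 to -0.037 on N118D arrays. The epithelial list ranged from -1.32 to 0.43 on v-Myb and from 0.26 to 0.68 on N118D arrays. The list means overlapped between the groups in the melanoblast, neural crest, epithelial, mesenchymal, neuronal and neural tube progenitor lists. The part of these cell types in the E2F1 difference was not tested.

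In the other measured E2F genes the groups overlapped. E2F7, a repressor of the family, and E2F4 differed by 0.19 (SE 0.15) and 0.058 (SE 0.12), in the direction of E2F1. E2F5 and E2F8 differed by -0.17 (SE 0.16) and -0.077 (SE 0.11), and E2F3 and E2F6 by -0.085 (SE 0.14) and -0.088 (SE 0.11). These genes were named after their values were seen. The replication genes described above, many of which E2F factors are known to activate, had differences between -0.10 and 0.0090. The 34 replication genes outside the list had differences between -0.10 and 0.13. Any part of E2F1 in these values was not tested.

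The CDK inhibitors slow the cycle by binding cyclin and kinase pairs. CDKN1A, which encodes p21, was at 10.13, 10.42 and 10.57 in v-Myb and at 10.24, 10.26 and 10.13 in N118D cultures. v-Myb replicates 2 and 3 lay above all N118D arrays, and v-Myb replicate 1 next to the lowest of them. The difference was 0.17 (SE 0.13) and the groups overlapped. It was 0.29 without v-Myb replicate 1, in which fit CDKN1A and E2F1 were the 2 genes of the list (7.69%) with an unadjusted p under 0.05, where 7.3% of all tested probe sets were (smallest adjusted p of the list in any fit 0.609 in limma). CDKN1B, which encodes p27, ran from 11.32 to 11.52 and differed by -0.014 (SE 0.085), and its other probe set by -0.11 (SE 0.14).

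Cyclins D and E act with their kinases on the way from G1 into S phase. CCND1, a D-type cyclin, was at 11.48, 11.42 and 11.63 in v-Myb and at 11.70, 11.57 and 11.47 in N118D cultures, a difference of -0.072 (SE 0.098). Its second probe set differed by -0.042 (SE 0.085). CCNE1, an E-type cyclin, was at 7.28, 7.29 and 7.27 in v-Myb and at 7.57, 7.31 and 6.98 in N118D cultures. The SD was 0.011 over the 3 v-Myb arrays and 0.30 over the 3 N118D arrays, which lay on both sides of them, and the difference was -0.0098 (SE 0.15). Its second tested probe set was at 7.04, 6.90 and 6.79 against 6.75, 6.83 and 6.57 and differed by 0.19 (SE 0.11), so the probe sets of CCNE1 disagreed in sign. The 2 probe sets of CCNE2 differed by 0.028 (SE 0.080) and 0.011 (SE 0.11).

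**Figure D4:**
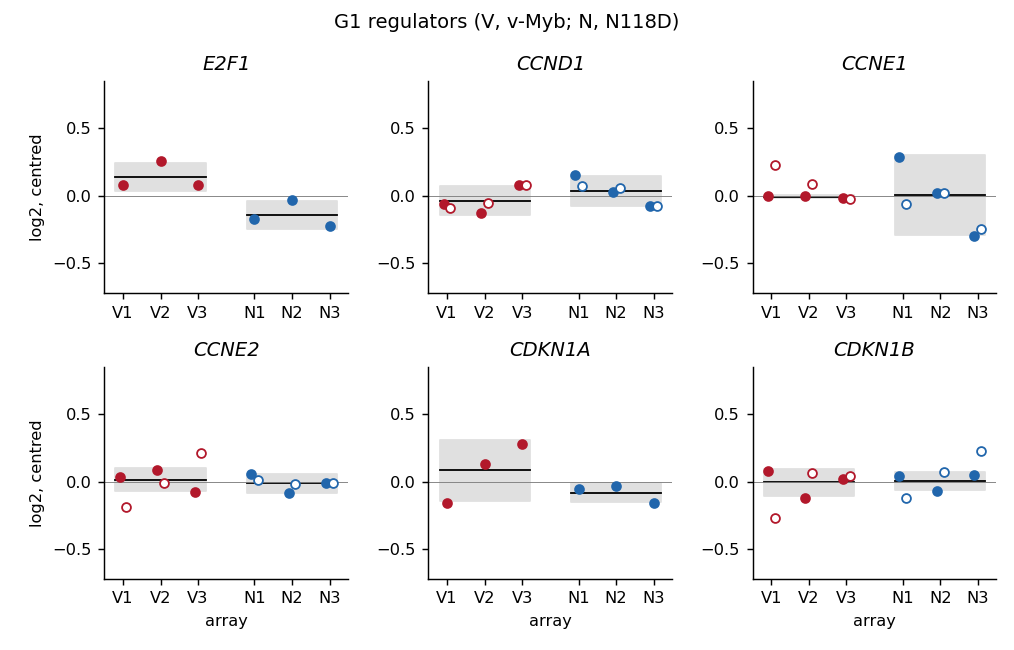
Log2 value minus the mean of the 6 arrays (vertical axis) for the 6 G1 regulators on the 3 v-Myb (V) and 3 N118D (N) arrays, drawn as for the replication genes, with group mean ± SD (n = 3) for the filled points. The v-Myb points of E2F1 all lie above its N118D points, and CDKN1A is high on V2 and V3 but not on V1.

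Further G1 regulators, with 29 of 37 measured, were higher in v-Myb cultures in 16 cases and lower in 13, with a median of 0.017. In limma 0 of the 29 had an unadjusted p under 0.05, against 1.91% of all tested probe sets. CDC25A, a phosphatase that activates CDKs, was at 7.52, 7.65 and 7.62 in v-Myb and at 7.52, 7.39 and 7.21 in N118D cultures, a difference of 0.23 (SE 0.10) with the groups just apart. It was the 1 gene of the 29 (3.45%) with no overlap, against 5.74% of all tested probe sets and 5.55% of all genes. CCNG2, an atypical cyclin, differed by -0.26 (SE 0.13), and CCND3, a D-type cyclin, by 0.40 (SE 0.21), and in both the groups overlapped.

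**Figure D5:**
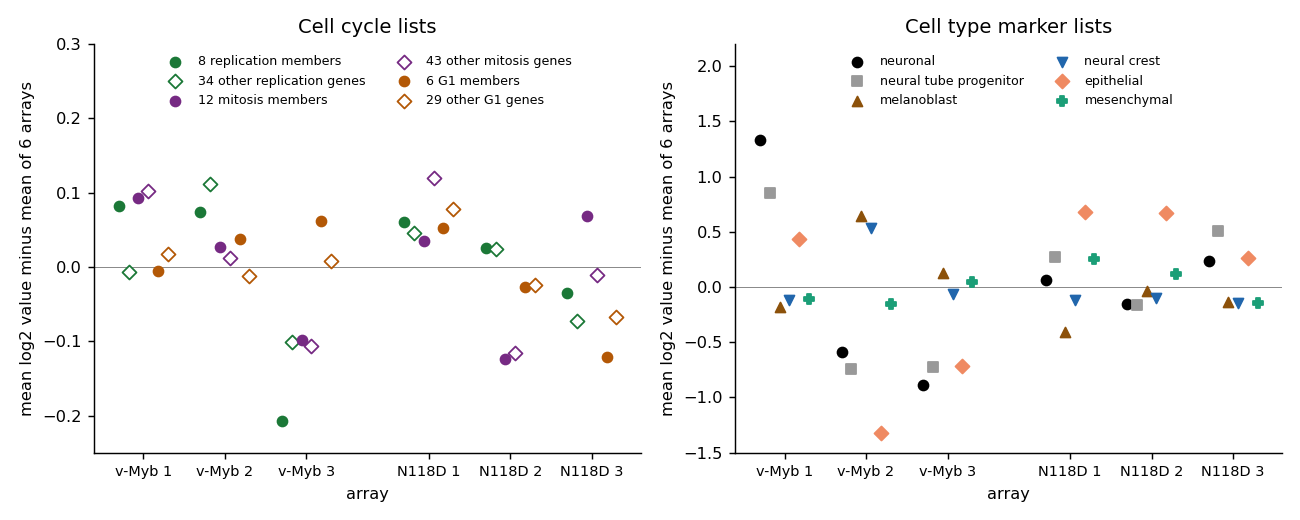
Mean log2 value of each list on each array after subtracting every gene's mean over the 6 arrays (vertical axis), for the cell cycle lists (left) and the cell type marker lists (right, with a wider vertical scale). The replication members are lowest on v-Myb 3 (-0.21), and the neuronal markers are highest on v-Myb 1 (1.33).

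The mean level of the mitosis members relative to their mean of all arrays was 0.093 on v-Myb replicate 1 and 0.069 on N118D replicate 3, and -0.099 and -0.12 on v-Myb replicate 3 and N118D replicate 2. The 43 mitosis genes outside the list were at 0.10 on v-Myb replicate 1 and at -0.11 and -0.12 on v-Myb replicate 3 and N118D replicate 2. They parted from the members on N118D replicate 3, where they were at -0.011, and were highest on N118D replicate 1, at 0.12, where the members were at 0.034. The lists of neuronal and neural tube progenitor markers stood at 1.33 and 0.85 on v-Myb replicate 1, 0.24 and 0.51 on N118D replicate 3, -0.89 and -0.72 on v-Myb replicate 3 and -0.15 and -0.16 on N118D replicate 2. On v-Myb replicate 2 they were at -0.59 and -0.74, while the mitosis members were at 0.026. Epithelial markers, with 5 of 8 genes measured, were between 0.26 and 0.68 on N118D arrays and at 0.43, -1.32 and -0.72 on v-Myb replicates 1, 2 and 3. The part of these cell types in the mitosis values was not tested.

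By a fixed rule, the 3 genes outside all cell cycle lists whose values over the 6 arrays were most like the mean of each class were picked from 2770 genes with an SD of at least 0.2. For replication these were NLGN1, a synaptic adhesion gene, KHDRBS2 and FRRS1L (Pearson r 0.97, 0.96 and 0.96 over 6 arrays). For mitosis they were EFCAB2, MLLT6 and PRKCB, a protein kinase C gene (r 0.99, 0.95 and 0.94). For the G1 regulators they were HHEX, a homeobox gene, VCPKMT and SMAD7, an inhibitor of TGF-beta signalling (r 0.98, 0.94 and 0.94). With 6 arrays and that many candidates, values of this size describe likeness in these arrays and nothing further.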

How the data were processed

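Total RNA (100 ng per culture) was labelled with a 3' in vitro transcription kit and hybridised to 6 GeneChip arrays, 3 per group, per the labels' protocols. The deposited table holds log2 values, recognised as such by their range of 0.78 to 15.83, and GCRMA and Partek 6.4 are named for them per the submitters' processing notes. GCRMA draws dim probe sets towards a floor, which shrinks differences there. Array medians were 3.08 to 3.12, and the number of arrays limits the precision.

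The 96 control probe sets were left out. Groups were compared on the log2 values with limma 3.58.1 in R 4.3.3 (lmFit and eBayes, two-sided, Benjamini-Hochberg over 16526 probe sets). The fit was also run on simulated data with independent noise for each probe set, which leaves out variation shared between probe sets. A gene was represented by its tested probe set with the highest mean over all arrays, and levels were not compared between probe sets. Symbols came from the platform annotation, which gave 27178 probe sets 1 symbol, 177 several and 11180 none. All 46 probe sets of the list matched a RefSeq gene of the same symbol. The genes of the list were all named, with the 3 of smallest p from each further list. The members and lists were chosen with earlier results of these data known. A planned count of promoter motifs was not run because no promoter sequences were used here.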

Additional observations from a re-analysis of the deposited data

How the results depend on the processing

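The count of probe sets past an adjusted p of 0.05, over all probe sets and among the members, was 0 in all 16 alternatives, and the smallest adjusted p of any probe set was 0.0553 in limma. The planned promoter motif count under forward strand only was not run. The count of probe sets at an unadjusted p under 0.05 was reported as 315 of 16526. It was 671 with array weights and 176 to 1206 on leaving out 1 array. Without both arrays numbered 1, an alternative added after seeing the data, it was 1104. Without a filter, where all 38439 probe sets other than controls were tested, the count was 734. It was 202 with a minimum of 6, and 147 genes with a gene's probe sets averaged. Those settings change the total tested, so their counts cannot be set directly beside 315 as a change in signal. Same-numbered arrays had deviations that correlated at 0.40, 0.45 and -0.05 over the 16526 probe sets, so the numbers were not taken to pair the samples. With the replicate number as a block the count was 666, and that of members at an unadjusted p under 0.05 stayed at 1. That count was 0 to 2 on leaving out 1 array. Without both arrays numbered 1 it was 1, with CDKN1A in place of E2F1.

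The median difference on leaving out 1 array was -0.13 (without v-Myb replicate 1) to 0.062 for replication genes, -0.014 to 0.079 for mitosis genes and -0.0031 to 0.098 (without N118D replicate 1) for G1 regulators, and 0.091 for the last without both arrays numbered 1. Of 26 genes, 6 kept the sign of their difference in every alternative: CCNA2, CCNB3, CDKN1A, E2F1, PCNA and TYMS. The ranges on leaving out 1 array that crossed 0 were, for replication genes, MCM2 -0.11 to 0.059, MCM3 -0.22 to 0.13, MCM5 -0.090 to 0.081, MCM6 -0.15 to 0.18, RRM1 -0.18 to 0.12 and RRM2 -0.20 to 0.0048. For mitosis genes they were AURKB -0.015 to 0.085, BIRC5 -0.069 to 0.045, BUB1 -0.070 to 0.074, BUB1B -0.011 to 0.19, CDC20 -0.069 to 0.085, CDK1 -0.071 to 0.041, CENPF -0.040 to 0.20, MKI67 -0.13 to 0.11, PLK1 -0.091 to 0.11 and TOP2A -0.013 to 0.11. For G1 regulators they were CCNE1 -0.16 to 0.13, CCNE2 -0.0072 to 0.073 and CDKN1B -0.056 to 0.042. Signs also turned with median centring for BIRC5 (0.0015), CCNE1 (0.0023), CDK1 (0.0079), MCM2 (0.0061) and RRM1 (0.00024), and with quantile normalization for CDC20 (-0.0069) and MCM5 (-0.0043). With array weights they turned for BIRC5 (0.027), CCNE1 (0.069), CDC20 (-0.0015), CENPF (-0.0046), MCM6 (-0.071) and MKI67 (-0.00031), and with the mean of probe sets for BUB1 (-0.0032) and CCNE1 (0.091). Without both arrays numbered 1 they turned for BIRC5 (0.028), CCND1 (0.0006), CCNE1 (0.13), CDC20 (-0.008), CENPF (-0.087), MCM6 (-0.14) and MKI67 (-0.050). The cause of these turns was not tested.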
